A study of Rattus norvegicus with 24 samples.

Results

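Vehicle-treated INS-1 cells collected at 6 h were compared with vehicle-treated INS-1 cells collected at 1 h, to show which transcripts changed over time without either agent of the study. The comparison rests on 8 libraries, 4 at 6 h and 4 at 1 h, out of 24 in the series, and members were taken by their labels (agent Control, time 6h or 1h). INS-1 is a single rat insulinoma line that secretes insulin and is widely used in place of the pancreatic beta cell. All cells had spent 90 min in culture medium with 3 mM glucose and were then given fresh medium with 11 mM glucose. DMSO was the vehicle of the Control cells, and the other 16 libraries came from cells given GLP-1 (an incretin hormone of the gut that raises cAMP in beta cells) at 100 nM or BMS-21 (a compound known here only by this code name) at 1 µM, each at 6 h and 1 h. No sample from before the change of medium was analysed here, so the level before the shift is unknown, and the time elapsed, the return of glucose, the fresh medium and the vehicle cannot be told apart. Whether the 4 replicates came from separate cultures is not in the labels, and p-values therefore speak for the spread among these libraries alone, which may be technical.

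A beta cell that meets fresh medium and glucose takes up fuel and amino acids, resumes protein and lipid synthesis, and secretes insulin. Several gene programmes are known for reacting within hours: the integrated stress response, in which ATF4 drives amino acid transporters, amino acid enzymes and tRNA synthetases when amino acids or protein folding are limiting; the immediate early genes, which are switched on without new protein synthesis and fade fast; and the sterol pathway, which SREBP2 drives when membrane cholesterol is low. Slower programmes include those of the endoplasmic reticulum (ER), where insulin is folded, and of the cell cycle, which a tumour line keeps running.

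The 8 Control libraries held 11442715 to 12727983 reads assigned to genes, and 15902 to 16197 genes had at least 1 read in a library. Levels are given as CPM, a gene's reads scaled to a common library total, in the order of replicates 1 to 4, and the detection floor was set at 3 reads, or 0.236 to 0.262 CPM (it covers counting error only). The summed CPM of the 10 measured beta-cell markers (3 more had no symbol in the tables) was 15950 to 16840 at 6 h, against 16370 to 17370 at 1 h. Of the 10 markers of other islet cells, 7 never exceeded 3 reads in a library, and of the 18 markers of acinar, duct, stromal, endothelial and immune cells 9 did not, 6 of them at 0 in all 8 libraries. In these bulk samples, fewer cells of a type and less RNA per cell cannot be told apart. The library kit does not mark strand, so reads of a gene and of an overlapping antisense gene are not separated, and near-identical paralogs such as Ins1 and Ins2 may share reads.

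Between 6 h and 1 h, 6870 of 12729 genes tested (54.0%) passed the threshold, a Benjamini-Hochberg adjusted p under 0.05 in edgeR's quasi-likelihood test over all genes. Of these, 3403 (26.7% of the genes tested) were higher and 3467 (27.2%) were lower at 6 h, so that a change in either direction was common and mostly small. The median log2 change of all genes was -0.0034 and the median size of a change was 0.2046 log2 units. Changes of at least 2-fold were rarer and mostly downward, with 144 genes (1.13%) higher and 385 (3.02%) lower. The ranges of the 4 libraries at 6 h and the 4 at 1 h did not overlap for 3030 higher genes (23.8%) and 3083 lower genes (24.2%). With replicates 1 and 2 alone 6251 genes passed the threshold, and with replicates 3 and 4 alone 6016. Every count of list members below is to be read against these shares, and 31 of the 570 genes tested in lists stand in more than 1 list (Atf3, Nr4a1, Slc7a11 and Shmt2 among them). Each log2 change is that at 6 h minus 1 h, and a standard error, where given, is from the fit.

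**Figure D1:**
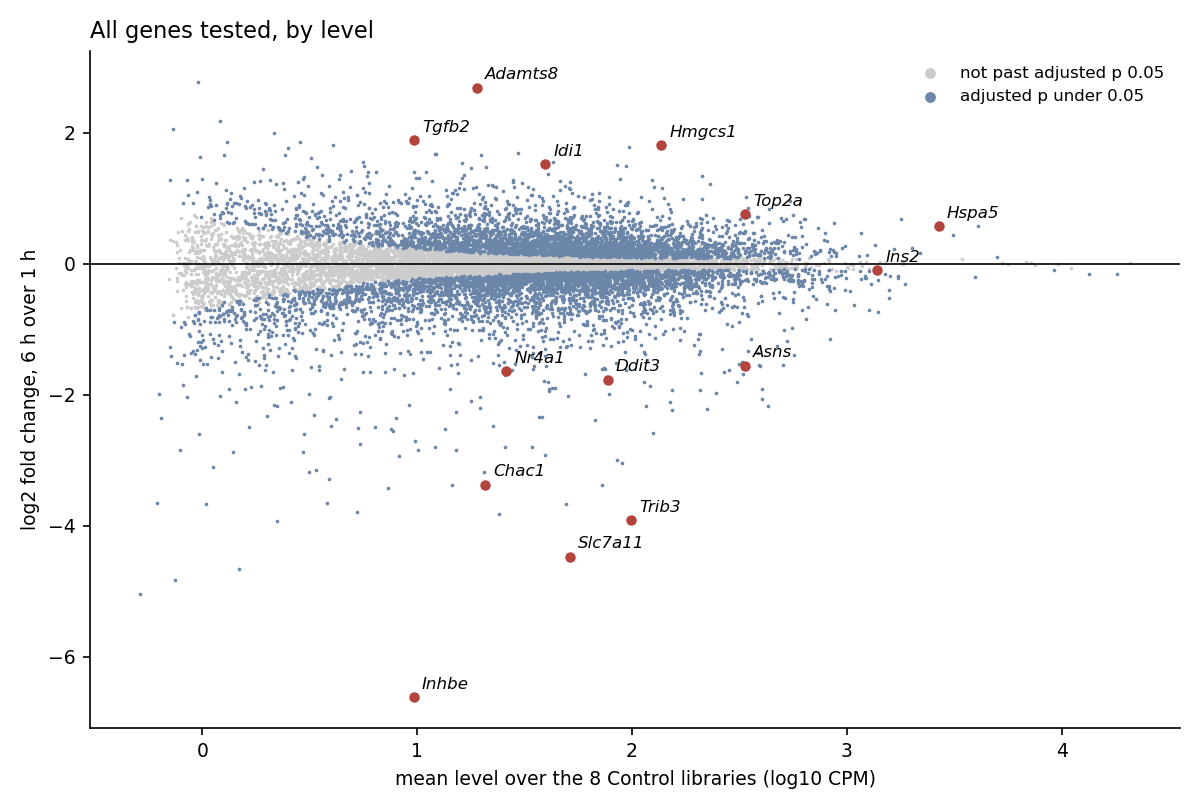
Log2 change at 6 h minus 1 h (vertical) against the mean level over the 8 Control libraries (log10 CPM) for the 12729 genes tested, with genes past the threshold in blue, others in grey and labelled genes in red. The fitted value of Inhbe, near the floor at 6 h, is no fold. The cloud is centred on 0 (median -0.0034), and more genes lie beyond 2-fold below it (385) than above it (144).

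The genes of the integrated stress response were lower at 6 h. Of 15 measured core genes 13 fell, 11 of them by at least 2-fold, and the median log2 change of the list was -1.54, against -0.0034 for all genes. Their summed level was 1703 to 1888 CPM at 6 h, against 3668 to 4124 CPM at 1 h. The 2 that rose are kinases upstream of the response rather than its targets, and they were named after their values were seen: Eif2ak3 (PERK, the sensor of the ER) changed by 0.32 and Eif2ak4 (GCN2, the sensor of uncharged tRNA) by 0.19 on the log2 scale.

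Atf4, the transcription factor at the centre of the response, had 220.3, 212, 218 and 237 CPM at 6 h, against 401, 403, 415 and 423 CPM at 1 h. All 6 h libraries were below all 1 h libraries, with a log2 change of -0.89 ± 0.04 (SE, adjusted p = 2.09e-16). Larger changes were seen among its known targets. Trib3, a pseudokinase that restrains AKT and ATF4, had 11.9, 9.9, 14.6 and 12.7 CPM at 6 h, against 169, 158, 227 and 190.3 CPM at 1 h. Levels at 1 h were 15.1-fold those at 6 h by the fitted change of -3.92 ± 0.17 (SE, adjusted p = 8.48e-07), and replicate 3 was the highest at both times. Chac1, which breaks down glutathione, had 3.51, 3.22, 4.6 and 3.16 CPM at 6 h, against 28.3, 36.1, 47.6 and 38.5 CPM at 1 h, a log2 change of -3.37 ± 0.21 (SE, adjusted p = 2.95e-07). Ddit3 (CHOP, a factor that promotes cell death under lasting stress) had 29.2, 28.9, 42.7 and 39.2 CPM at 6 h, against 107, 104, 133 and 132 CPM at 1 h. Its groups did not overlap although the 1 h libraries of replicates 1 and 2 were lower than those of replicates 3 and 4, and the log2 change was -1.77 ± 0.16 (SE, adjusted p = 6.76e-05).

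Atf3, a repressor that is also an immediate early gene, had 10.1, 12.4, 15 and 11.3 CPM at 6 h, against 55, 54.7, 70.7 and 65 CPM at 1 h, a log2 change of -2.33 ± 0.11 (SE, adjusted p = 1.52e-10). Sesn2, a leucine sensor that restrains mTORC1, averaged 101 ± 2.32 CPM at 6 h and 319 ± 16.2 CPM at 1 h (SD, n = 4 each), a log2 change of -1.66 ± 0.04 (SE, adjusted p = 2.03e-21). Cebpg, a partner of ATF4, averaged 161 ± 8.86 CPM at 6 h and 465 ± 26.2 CPM at 1 h, and Vldlr, a lipoprotein receptor, averaged 199 ± 12.6 CPM at 6 h and 579 ± 42.9 CPM at 1 h. Their log2 changes were -1.53 ± 0.04 (SE, adjusted p = 1.31e-19) and -1.54 ± 0.05 (SE, adjusted p = 2.91e-15), and neither gene had overlapping groups.

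The genes for amino acid uptake and synthesis were lower at 6 h to a similar extent. All 12 measured amino acid transporters fell (median log2 change -1.67, 8 of them by at least 2-fold), and their summed level was 962 to 1019.6 CPM at 6 h, against 2908 to 3199.7 CPM at 1 h. Among 12 enzymes of serine and other amino acid synthesis 10 fell (median -1.68, 9 by at least 2-fold) and 1 rose. Of 20 cytosolic aminoacyl-tRNA synthetases, which charge tRNAs with their amino acids, 17 fell (median -1.13, 11 by at least 2-fold). The exceptions that rose, Kars at 0.17 and Hars at 0.31, were named after their values were seen.

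Slc7a11, the cystine importer that feeds glutathione synthesis, had 4.21, 2.88, 5.34 and 5.24 CPM at 6 h, against 88.8, 89.2, 106 and 110.0 CPM at 1 h. The 1 h level was 22.2-fold the 6 h level, with a log2 change of -4.47 ± 0.13 (SE, adjusted p = 1.59e-12). Slc7a5, the light chain of the leucine transporter, had 157, 160.4, 148 and 156 CPM at 6 h, against 652, 636, 654 and 654 CPM at 1 h. The spread within each time was small beside the difference, with a log2 change of -2.06 ± 0.04 (SE, adjusted p = 4.65e-24). Slc1a4, a carrier of serine and alanine, had 52.3, 53.6, 55 and 53.5 CPM at 6 h, against 236, 243, 272 and 258 CPM at 1 h, a log2 change of -2.24 ± 0.05 (SE, adjusted p = 6.67e-23). Slc7a1, the importer of arginine and lysine, had 153, 143, 162 and 166 CPM at 6 h, against 689, 667, 732 and 728 CPM at 1 h, a log2 change of -2.17 ± 0.04 (SE, adjusted p = 6.67e-23). Each of these carriers had non-overlapping groups, as had 11 of the 12 transporters. Slc6a9, a glycine carrier, averaged 12.8 ± 0.31 CPM at 6 h and 133 ± 8.65 CPM at 1 h, a log2 change of -3.37 ± 0.06 (SE, adjusted p = 5.65e-24).

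Among the enzymes, Psat1, which makes phosphoserine, had 19.4, 19.1, 18.7 and 18.6 CPM at 6 h, against 142, 150.2, 157 and 157 CPM at 1 h. Levels at 1 h were 7.98-fold those at 6 h, with a log2 change of -3.0 ± 0.05 (SE, adjusted p = 4.65e-24). Asns, which makes asparagine, had 174, 181, 158 and 168 CPM at 6 h, against 495, 489.5, 497 and 517 CPM at 1 h, a log2 change of -1.55 ± 0.04 (SE, adjusted p = 4.10e-21). All libraries at 6 h were under the lowest at 1 h for both enzymes. Shmt2, the mitochondrial enzyme that takes one-carbon units from serine, averaged 79.5 ± 2.87 CPM at 6 h and 369 ± 11.3 CPM at 1 h, a log2 change of -2.22 ± 0.04 (SE, adjusted p = 4.65e-24). Aldh18a1, the entry to proline synthesis, averaged 62.1 ± 1.91 CPM at 6 h and 173 ± 3.77 CPM at 1 h, a log2 change of -1.47 ± 0.04 (SE, adjusted p = 2.67e-20). Gpt2, the mitochondrial alanine aminotransferase, averaged 4.06 ± 0.598 CPM at 6 h and 36.9 ± 1.31 CPM at 1 h, a log2 change of -3.18 ± 0.09 (SE, adjusted p = 6.81e-20).

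The tRNA synthetases for cysteine, serine, isoleucine and tyrosine had the smallest adjusted p-values of their list. Cars (cysteine) had 38.3, 38.4, 35 and 32.8 CPM at 6 h, against 212, 214, 225 and 209.7 CPM at 1 h, a log2 change of -2.57 ± 0.05 (SE, adjusted p = 1.08e-23). Sars (serine) averaged 169 ± 6.02 CPM at 6 h and 633 ± 17.4 CPM at 1 h, a log2 change of -1.90 ± 0.04 (SE, adjusted p = 1.65e-23). Iars (isoleucine) averaged 86.3 ± 1.9 CPM at 6 h and 329 ± 11.7 CPM at 1 h, and Yars (tyrosine) averaged 136 ± 3.78 CPM at 6 h and 478 ± 14.1 CPM at 1 h. Their log2 changes were -1.93 ± 0.04 (SE, adjusted p = 3.68e-23) and -1.81 ± 0.04 (SE, adjusted p = 4.23e-23), so that every library at 6 h was far below every library at 1 h for these 4 genes. Over the 20 synthetases, the summed level was 2702 to 2842 CPM at 6 h, against 6323 to 6746 CPM at 1 h.

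Upstream sequence is shown for 5 of these genes, from lists whose members mostly fell. Each line gives the 250 bases before the transcription start annotated by RefSeq on the build GRCr8, on the strand of the gene; the study's reads were aligned to Rnor_5.0, and no coordinates of that build are used. Slc7a5, Slc1a4 and Slc7a1 were taken by a rule (the transporters with the smallest adjusted p whose window held a searched motif), and Chac1 and Trib3 were chosen after their values were seen. For the 3 transporters capitals mark CCAAT (the site of NF-Y), CACGTG (the E box) and TGATGNAA (the C/EBP-ATF element known to bind ATF4 with a C/EBP partner), each searched on both strands. For Chac1 and Trib3 capitals mark TGATGNAA alone, a motif that was added after the values were seen. These 2 genes were chosen because their windows held it, the only ones to do so among 13 windows of their list. Every window shown thus holds a match by the way it was chosen.
Slc7a5 (chr19:66872413-66872662, minus strand): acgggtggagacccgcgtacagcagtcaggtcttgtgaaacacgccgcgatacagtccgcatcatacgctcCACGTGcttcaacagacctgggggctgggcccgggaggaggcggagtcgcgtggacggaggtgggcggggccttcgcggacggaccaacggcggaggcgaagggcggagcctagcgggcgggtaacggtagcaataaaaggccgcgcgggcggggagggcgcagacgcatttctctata
Slc1a4 (chr14:98761563-98761812, minus strand): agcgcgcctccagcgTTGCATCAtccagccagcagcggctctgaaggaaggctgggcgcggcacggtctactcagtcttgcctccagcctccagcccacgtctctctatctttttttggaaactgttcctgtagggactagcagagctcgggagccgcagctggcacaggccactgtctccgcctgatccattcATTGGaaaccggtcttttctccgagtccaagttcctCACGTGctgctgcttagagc
Slc7a1 (chr12:11664238-11664487, plus strand): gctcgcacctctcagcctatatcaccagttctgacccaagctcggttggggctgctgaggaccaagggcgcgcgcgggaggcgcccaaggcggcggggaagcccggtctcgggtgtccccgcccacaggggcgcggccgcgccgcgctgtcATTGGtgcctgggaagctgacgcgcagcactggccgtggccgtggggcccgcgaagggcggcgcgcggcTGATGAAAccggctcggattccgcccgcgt
Chac1 (chr3:126795881-126796130, plus strand): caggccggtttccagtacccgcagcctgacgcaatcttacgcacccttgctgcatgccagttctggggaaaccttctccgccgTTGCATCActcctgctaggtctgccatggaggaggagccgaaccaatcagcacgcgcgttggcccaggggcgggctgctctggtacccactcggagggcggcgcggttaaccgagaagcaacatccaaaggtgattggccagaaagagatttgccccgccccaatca
Trib3 (chr3:161275534-161275783, minus strand): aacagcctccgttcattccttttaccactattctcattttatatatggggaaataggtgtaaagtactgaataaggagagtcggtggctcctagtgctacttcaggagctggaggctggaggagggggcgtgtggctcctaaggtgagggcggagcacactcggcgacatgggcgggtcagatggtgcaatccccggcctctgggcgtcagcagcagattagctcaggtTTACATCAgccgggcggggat

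The windows searched ran from 250 bases before to 50 bases after the start, and 24206 RefSeq windows were available. TGATGNAA was found in 3 of 9 matched transporter windows (33.3%), in 2 of 8 windows of amino acid enzymes (25.0%) and in 2 of 13 windows of the stress response (15.4%), against 3.74% of all windows and 1.67% of the windows of genes tested. CCAAT was in 4 of 9 transporter windows (44.4%), against 37.8% of all windows, and CACGTG was in 2 of 9 (22.2%), against 6.74%. A match is a run of letters and not a measured binding site. Of the tRNA synthetases, 2 had a matched window, and their shares are not read.

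The immediate early transcription factors were lower at 6 h than at 1 h. Of 24 measured genes 18 fell and none rose (median log2 change -0.72, 7 by at least 2-fold), and for all 18 the groups did not overlap. Their summed level was 582 to 636 CPM at 6 h, against 860.5 to 949 CPM at 1 h. Nr4a1, an orphan nuclear receptor induced by calcium and cAMP, had 12, 11.8, 13.1 and 13.3 CPM at 6 h, against 39.3, 38.5, 38.7 and 40.5 CPM at 1 h. The 1 h level was 3.12-fold the 6 h level, with a log2 change of -1.64 ± 0.07 (SE, adjusted p = 1.59e-16). Egr1, a zinc finger factor induced by ERK, had 27.8, 32.3, 35.2 and 29.3 CPM at 6 h, against 45.4, 45, 58.5 and 49.4 CPM at 1 h, a log2 change of -0.67 ± 0.09 (SE, adjusted p = 3.12e-06). Fos, a subunit of AP-1, was low at both times, with 2.5, 2.62, 2.63 and 2.75 CPM at 6 h, against 5.51, 4.85, 4.97 and 4.62 CPM at 1 h, a log2 change of -0.93 ± 0.15 (SE, adjusted p = 6.71e-06). Jun, its partner, averaged 5.88 ± 0.599 CPM at 6 h and 14.9 ± 1.39 CPM at 1 h and Jund averaged 125 ± 7.58 CPM at 6 h and 186 ± 4.95 CPM at 1 h, with log2 changes of -1.34 ± 0.10 (SE, adjusted p = 4.55e-11) and -0.58 ± 0.04 (SE, adjusted p = 1.18e-11).

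Genes that shorten mRNA life or slow growth, and genes that feed back on MAP kinases, were mostly lower as well. Of 11 genes of mRNA decay and growth arrest 8 fell and 1 rose (median -0.34). Zfp36l2, which binds AU-rich elements and recruits deadenylases, averaged 31.6 ± 1.45 CPM at 6 h and 60.7 ± 1.88 CPM at 1 h, a log2 change of -0.94 ± 0.05 (SE, adjusted p = 8.71e-14). Btg1, Btg3 (antiproliferative factors) and Gadd45b (a stress sensor) changed by -0.64, -0.34 and -0.72. Of 16 phosphatases and Sprouty genes 11 fell and none rose (median -0.47), or 1 rose with the replicate block. Dusp4, a nuclear phosphatase of ERK, had 12.1, 15.6, 15.8 and 15.8 CPM at 6 h, against 37.9, 38.2, 51.9 and 41.6 CPM at 1 h, a log2 change of -1.52 ± 0.11 (SE, adjusted p = 7.46e-09), and replicate 1 was the lowest library at 6 h. Spry1, an inhibitor of receptor tyrosine kinase signalling, averaged 4.27 ± 0.354 CPM at 6 h and 10.0 ± 1.05 CPM at 1 h, a log2 change of -1.23 ± 0.12 (SE, adjusted p = 2.56e-09). Dusp16 and Dusp8, phosphatases of JNK and p38, changed by -0.78 and -0.61.

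Known targets of CREB and its coactivator CRTC, which read cAMP and calcium, mostly fell: 12 of 19 were lower and 2 were higher (median -0.31). Pde10a, which degrades cyclic nucleotides, averaged 116 ± 3.08 CPM at 6 h and 194 ± 12.2 CPM at 1 h, a log2 change of -0.74 ± 0.04 (SE, adjusted p = 1.36e-13). Rasd1, a small GTPase, averaged 19.9 ± 2.03 CPM at 6 h and 42.2 ± 4.12 CPM at 1 h, a log2 change of -1.08 ± 0.08 (SE, adjusted p = 1.11e-11). Of 15 circadian clock genes 11 fell and 2 rose (median -0.39), or 1 rose without Control 1 h replicate 3 or without Control 6 h replicate 2. Per1, a clock repressor that is also a CREB target, had 54, 51.8, 54.2 and 52.2 CPM at 6 h, against 81.2, 82.6, 83.6 and 79.1 CPM at 1 h, a log2 change of -0.62 ± 0.05 (SE, adjusted p = 1.20e-11). Per2, its paralog, had 19.1, 14.6, 18.4 and 18.4 CPM at 6 h, against 41.8, 33.9, 40.6 and 42.2 CPM at 1 h, a log2 change of -1.17 ± 0.08 (SE, adjusted p = 1.01e-11). Dbp, a clock output factor, averaged 37.3 ± 0.814 CPM at 6 h and 66.7 ± 4.6 CPM at 1 h, and Nr1d2 (REV-ERB beta) averaged 48.3 ± 1.53 CPM at 6 h and 79.1 ± 3.28 CPM at 1 h, with log2 changes of -0.84 ± 0.05 (SE, adjusted p = 1.53e-12) and -0.71 ± 0.05 (SE, adjusted p = 3.33e-12).

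**Figure D2:**
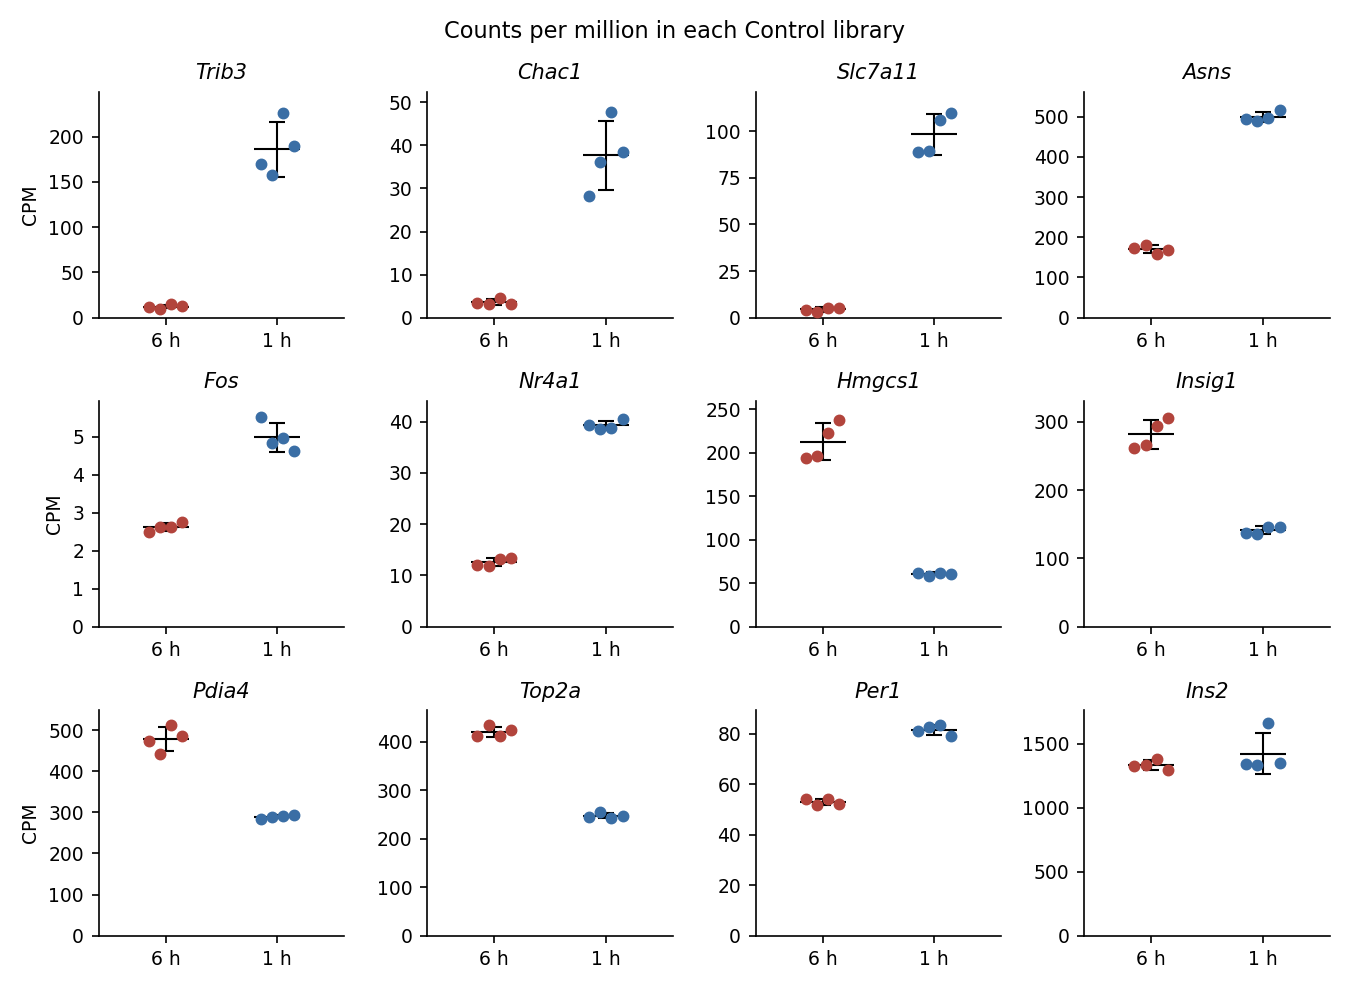
Level in each Control library (CPM, each panel with its own axis) of 12 genes, with cells at 6 h left of cells at 1 h, points in the order of replicates 1 to 4, a horizontal line for the mean and error bars for the SD (n = 4). Trib3, Chac1, Slc7a11, Asns, Fos, Nr4a1 and Per1 are lower at 6 h in all 4 libraries, Hmgcs1, Insig1, Pdia4 and Top2a are higher in all 4, and the groups overlap for Ins2.

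Genes of cholesterol synthesis and uptake were higher at 6 h. Of 23 measured genes 21 rose and none fell (median log2 change 0.81, 8 by at least 2-fold), with no overlap between the groups for all 21. Their summed level was 2668 to 2918 CPM at 6 h, against 1499 to 1566 CPM at 1 h. Hmgcs1, which makes HMG-CoA, had 194, 196, 222 and 238 CPM at 6 h, against 62, 58.1, 61.6 and 60.6 CPM at 1 h. The 6 h level was 3.51-fold the 1 h level, with a log2 change of 1.81 ± 0.06 (SE, adjusted p = 9.60e-16). Insig1, which holds SREBP in the ER and is itself a target of SREBP, had 262, 266, 293 and 306 CPM at 6 h, against 137, 136, 146 and 146 CPM at 1 h, a log2 change of 1.0 ± 0.05 (SE, adjusted p = 5.46e-15). Both genes were higher in every 6 h library than in any 1 h library.

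Further along the pathway, Idi1, the isomerase of isopentenyl diphosphate, averaged 58.5 ± 5.84 CPM at 6 h and 20.3 ± 2.07 CPM at 1 h, a log2 change of 1.53 ± 0.08 (SE, adjusted p = 2.53e-14). Fdft1 (squalene synthase) averaged 72.4 ± 3.63 CPM at 6 h and 30.4 ± 2.45 CPM at 1 h, and Stard4, a carrier of sterol between membranes, averaged 63.3 ± 3.15 CPM at 6 h and 28.9 ± 0.757 CPM at 1 h. Their log2 changes were 1.25 ± 0.06 (SE, adjusted p = 1.92e-15) and 1.13 ± 0.05 (SE, adjusted p = 3.59e-15). No window of 16 cholesterol genes held the sterol element as TCACCCCAC or TCACNCCAC within the 300 bases searched (0.488% and 1.12% of all windows did), which says only that these letters are not in this window. CCAAT was in 14 of the 16 (87.5%).

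Fatty acid genes were mixed. Of 19, 12 rose and 4 fell (median 0.21). Acly, which makes acetyl-CoA from citrate, had 5024, 5023, 4723 and 4732 CPM at 6 h, against 3321, 3371, 3228 and 3189 CPM at 1 h, a log2 change of 0.57 ± 0.03 (SE, adjusted p = 1.20e-13). Acss2, which makes it from acetate, averaged 70.8 ± 2.24 CPM at 6 h and 32 ± 0.594 CPM at 1 h, a log2 change of 1.14 ± 0.05 (SE, adjusted p = 5.48e-16). In the other direction, Dgat2, which completes triglyceride, had 12.2, 12.9, 13.2 and 12.1 CPM at 6 h, against 67.8, 56.4, 65.2 and 65.2 CPM at 1 h, and the 1 h level was 5.04-fold the 6 h level, with a log2 change of -2.33 ± 0.07 (SE, adjusted p = 1.48e-19). Srebf1, which encodes SREBP1, averaged 125 ± 8.64 CPM at 6 h and 211 ± 9.29 CPM at 1 h, a log2 change of -0.75 ± 0.04 (SE, adjusted p = 3.25e-13). Of 10 LXR targets and genes of sterol export 6 fell and none rose (median -0.19): Soat1, which esterifies cholesterol, changed by -1.02, the exporter Abcg1 by -0.75, the phospholipid enzyme Lpcat3 by -0.47 and the HDL receptor Scarb1, whose groups overlapped, by -0.20. Of 14 genes of fatty acid oxidation 7 fell and 3 rose (median -0.13). Cpt1a, the gate of fatty acids into mitochondria, averaged 57.2 ± 3.73 CPM at 6 h and 102 ± 0.724 CPM at 1 h, a log2 change of -0.84 ± 0.05 (SE, adjusted p = 7.52e-14). Hadhb, Slc25a20 and Acadl, later members of the same route, changed by -0.76, -0.58 and -0.52.

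Among genes of glucose metabolism, 11 of 17 for glucose uptake and glycolysis rose and 2 fell (median 0.31). The number that fell was 1 without Control 1 h replicate 1 or 4, or without Control 6 h replicate 1 or 2. It was also 1 with DESeq2, and 0 with DESeq2 with the replicate block or with replicates 3 and 4 alone. Gpi, the isomerase that follows glucose phosphorylation, had 755, 739, 697 and 670.0 CPM at 6 h, against 386, 387, 357 and 345 CPM at 1 h, a log2 change of 0.96 ± 0.04 (SE, adjusted p = 1.29e-15). Pfkp, a phosphofructokinase, averaged 116 ± 6.51 CPM at 6 h and 59.4 ± 2.82 CPM at 1 h, a log2 change of 0.96 ± 0.05 (SE, adjusted p = 8.74e-15). Aldoa (aldolase) and Pgam1 (phosphoglycerate mutase) changed by 0.70 and 0.41. Slc2a2, the glucose transporter GLUT2, had 1792, 1874, 1760.2 and 1834 CPM at 6 h, against 1776, 1848, 1739.5 and 1809 CPM at 1 h, and its log2 change of 0.02 ± 0.03 (SE, adjusted p = 0.671) did not pass the threshold.

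The known glucose-responsive targets of ChREBP went both ways, with 7 of 17 higher and 8 lower (median -0.01). Txnip, an inhibitor of thioredoxin that glucose induces, had 1049.6, 1133, 1162 and 1097 CPM at 6 h, against 1118, 1190.4, 1256 and 1199 CPM at 1 h. Its groups overlapped, and its log2 change was -0.10 ± 0.04 (SE, adjusted p = 0.0262), a call that was lost without Control 1 h replicate 3 (adjusted p = 0.148), without Control 6 h replicate 1 (0.164) or without Control 6 h replicate 4 (0.0785). Arrdc4, its paralog, had 101, 118, 110.4 and 107 CPM at 6 h, against 93.2, 101, 89.4 and 91.4 CPM at 1 h, a log2 change of 0.22 ± 0.05 (SE, adjusted p = 0.000377). Pklr, the liver-type pyruvate kinase, averaged 396 ± 21.1 CPM at 6 h and 259 ± 18.1 CPM at 1 h, a log2 change of 0.61 ± 0.05 (SE, adjusted p = 1.03e-10). Mlxipl, which encodes ChREBP, and its partner Mlx changed by 0.17 and 0.31, while the clock genes Arntl and Nr1d1 of this list changed by -0.53 and -0.67. Of 11 pentose phosphate and NADPH genes 6 rose and 3 fell (median 0.14), with Tkt (transketolase) at 0.43, Taldo1 (transaldolase) at 0.26 and Me1 (malic enzyme) at 0.18.

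ER chaperones and protein processing genes were higher at 6 h. Of 24, 20 rose and 2 fell (median log2 change 0.31), and their summed level was 15347 to 17426 CPM at 6 h, against 13267 to 14546 CPM at 1 h. Pdia4, a disulfide isomerase, had 474, 441, 511 and 485 CPM at 6 h, against 283, 289.6, 292 and 293 CPM at 1 h, a log2 change of 0.72 ± 0.04 (SE, adjusted p = 3.04e-14). Sdf2l1, a cofactor of the ER chaperone BiP, had 42.7, 39.8, 46.3 and 44.5 CPM at 6 h, against 17.7, 17.8, 19.5 and 19 CPM at 1 h, a log2 change of 1.23 ± 0.07 (SE, adjusted p = 3.48e-14). Dnajb11, another BiP cofactor, averaged 291 ± 12.8 CPM at 6 h and 202 ± 3.88 CPM at 1 h, a log2 change of 0.53 ± 0.04 (SE, adjusted p = 6.66e-12). The 2 genes that fell belong to the removal of misfolded proteins from the ER. Sel1l, the adaptor of the HRD1 ubiquitin ligase, had 299, 293, 335 and 323 CPM at 6 h, against 779, 783, 849 and 872 CPM at 1 h, a log2 change of -1.39 ± 0.04 (SE, adjusted p = 2.21e-17). Herpud1, another part of that machinery, was named after its value was seen and changed by -1.19 (adjusted p = 4.32e-05).

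Heat shock genes and antioxidant genes were mostly higher too, and hypoxia genes were split. Of 10 heat shock genes 6 rose and 2 fell (median 0.37), or 1 fell without Control 1 h replicate 3. Bag3, a co-chaperone, averaged 88.7 ± 3.11 CPM at 6 h and 49.6 ± 3.2 CPM at 1 h, a log2 change of 0.84 ± 0.05 (SE, adjusted p = 2.82e-13). Dnaja1, Dnajb1 (J-domain co-chaperones) and Hsp90ab1 (HSP90 beta) changed by 0.65, 0.46 and 0.44. Of 14 NRF2 targets and antioxidant genes 10 rose and 2 fell, Slc7a11 among those that fell (median 0.21). Nqo1, a quinone reductase, was low, with 3.98, 4.91, 4.27 and 4.74 CPM at 6 h, against 1.0, 1.3, 1.24 and 1.33 CPM at 1 h, a log2 change of 1.87 ± 0.18 (SE, adjusted p = 3.57e-09). Txnrd1 (thioredoxin reductase) and Gsr (glutathione reductase) changed by 0.66 and 0.62. Of 15 hypoxia genes 6 rose and 6 fell (median 0.04), with the prolyl hydroxylase Egln3 at 1.05 and Ndrg1 at 0.44, and with the MYC antagonist Mxi1 at -0.62 and the mitophagy receptor Bnip3 at -0.37.

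Genes of mitosis and DNA replication were higher at 6 h. All 23 measured genes of mitosis and chromosome segregation rose (median log2 change 0.72, 3 by at least 2-fold), with no overlap between the groups for any of the 23. Of 28 DNA replication genes 24 rose and none fell (median 0.45). Top2a, which untangles DNA before segregation, had 412, 434, 412 and 424 CPM at 6 h, against 246, 256, 243 and 247 CPM at 1 h, a log2 change of 0.76 ± 0.03 (SE, adjusted p = 8.35e-16). Kif23, a kinesin of the midbody, had 44.1, 46.4, 46.8 and 45.4 CPM at 6 h, against 18.8, 21.4, 20.8 and 19.9 CPM at 1 h, a log2 change of 1.18 ± 0.06 (SE, adjusted p = 1.56e-14). Mki67, the proliferation marker, had 273, 300.0, 295 and 309 CPM at 6 h, against 181, 185, 185 and 175 CPM at 1 h, a log2 change of 0.70 ± 0.04 (SE, adjusted p = 7.67e-14). In each of these the 4 libraries of a time lay close together beside the difference between the times. Kif20a, another mitotic kinesin, averaged 102 ± 5.02 CPM at 6 h and 54.1 ± 4.03 CPM at 1 h, a log2 change of 0.91 ± 0.05 (SE, adjusted p = 1.20e-13).

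For replication, Tk1 (thymidine kinase) had 66.4, 71, 61 and 61.7 CPM at 6 h, against 29.1, 28.9, 25.7 and 24.2 CPM at 1 h, a log2 change of 1.27 ± 0.06 (SE, adjusted p = 9.98e-15). Mcm5, a subunit of the replicative helicase, averaged 85.8 ± 3.26 CPM at 6 h and 50.2 ± 4.23 CPM at 1 h. Its log2 change was 0.77 ± 0.05 (SE, adjusted p = 5.65e-12), and that of Rrm1, a subunit of ribonucleotide reductase, was 0.54 ± 0.03 (SE, adjusted p = 9.06e-13). The summed level of the mitosis list was 2358 to 2524 CPM at 6 h, against 1469 to 1582 CPM at 1 h, and that of the replication list was 3102 to 3179 CPM at 6 h, against 2354 to 2429 CPM at 1 h.

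The 250 bases before the start are shown for 3 mitosis genes, because every member of their list rose. These 3 had the smallest adjusted p among members whose window held a searched motif. Capitals mark CCAAT and TTTGAA on either strand. TTTGAA is the core of the cell-cycle homology region, known to bind the MuvB complex, and was added after the values were seen. The 2 motifs overlap by 1 base once in the window of Mki67.
Top2a (chr10:84473094-84473343, minus strand): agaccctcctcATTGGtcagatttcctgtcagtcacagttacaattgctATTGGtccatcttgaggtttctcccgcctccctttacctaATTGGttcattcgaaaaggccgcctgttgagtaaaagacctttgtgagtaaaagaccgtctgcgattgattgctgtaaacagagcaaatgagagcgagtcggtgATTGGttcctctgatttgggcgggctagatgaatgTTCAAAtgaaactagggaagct
Kif23 (chr8:71320585-71320834, minus strand): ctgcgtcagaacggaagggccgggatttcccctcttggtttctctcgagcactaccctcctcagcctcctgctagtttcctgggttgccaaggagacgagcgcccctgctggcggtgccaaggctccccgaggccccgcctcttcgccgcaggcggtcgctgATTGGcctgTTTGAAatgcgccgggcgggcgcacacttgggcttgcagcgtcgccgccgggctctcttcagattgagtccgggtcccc
Mki67 (chr1:199952594-199952843, minus strand): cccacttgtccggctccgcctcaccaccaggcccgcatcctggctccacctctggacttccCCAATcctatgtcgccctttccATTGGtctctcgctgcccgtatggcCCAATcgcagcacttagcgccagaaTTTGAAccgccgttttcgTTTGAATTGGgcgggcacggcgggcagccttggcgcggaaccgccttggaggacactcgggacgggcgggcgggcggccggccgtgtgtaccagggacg

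CCAAT was in 15 of 19 matched mitosis windows (78.9%), against 37.8% of all windows and 37.3% of the windows of genes tested, and TTTGAA was in 13 of 19 (68.4%), against 18.1% of all windows and 10.9% of those of genes tested. In 21 replication windows the counts were 14 for CCAAT (66.7%) and 2 for TTTGAA (9.52%). Both motifs are also in many windows outside these lists, and no test was made of these shares.

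Cyclins, CDK inhibitors and related genes were mixed: of 13 genes 4 rose and 8 fell (median -0.12). Cdkn2c, an inhibitor of CDK4 and CDK6, averaged 47.7 ± 1.16 CPM at 6 h and 21.7 ± 1.92 CPM at 1 h, a log2 change of 1.14 ± 0.06 (SE, adjusted p = 6.82e-14). Bbc3 (PUMA, a trigger of apoptosis) averaged 13.4 ± 1.27 CPM at 6 h and 27 ± 1.87 CPM at 1 h, a log2 change of -1.02 ± 0.08 (SE, adjusted p = 5.58e-11). Rb1, which holds back entry into S phase, changed by -0.62. Ccnd2, the main D-type cyclin of beta cells, had 263, 266, 266 and 263 CPM at 6 h, against 289.7, 294, 306 and 299 CPM at 1 h, a log2 change of -0.17 ± 0.03 (SE, adjusted p = 0.000148). Ccnd1, another D-type cyclin, had 8.19, 6.52, 9.45 and 9.15 CPM at 6 h, against 7.1, 5.63, 5.47 and 6.75 CPM at 1 h. Its groups overlapped, and its log2 change of 0.42 ± 0.13 (SE, adjusted p = 0.00708) was 0.22 with replicates 1 and 2 alone (adjusted p = 0.281). Of 11 genes of apoptosis and survival 6 rose and 4 fell (median 0.14), with the survival gene Bcl2l1 at 0.33 and the death-promoting Bad and Bmf at 0.35 and 0.68.

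**Figure D3:**
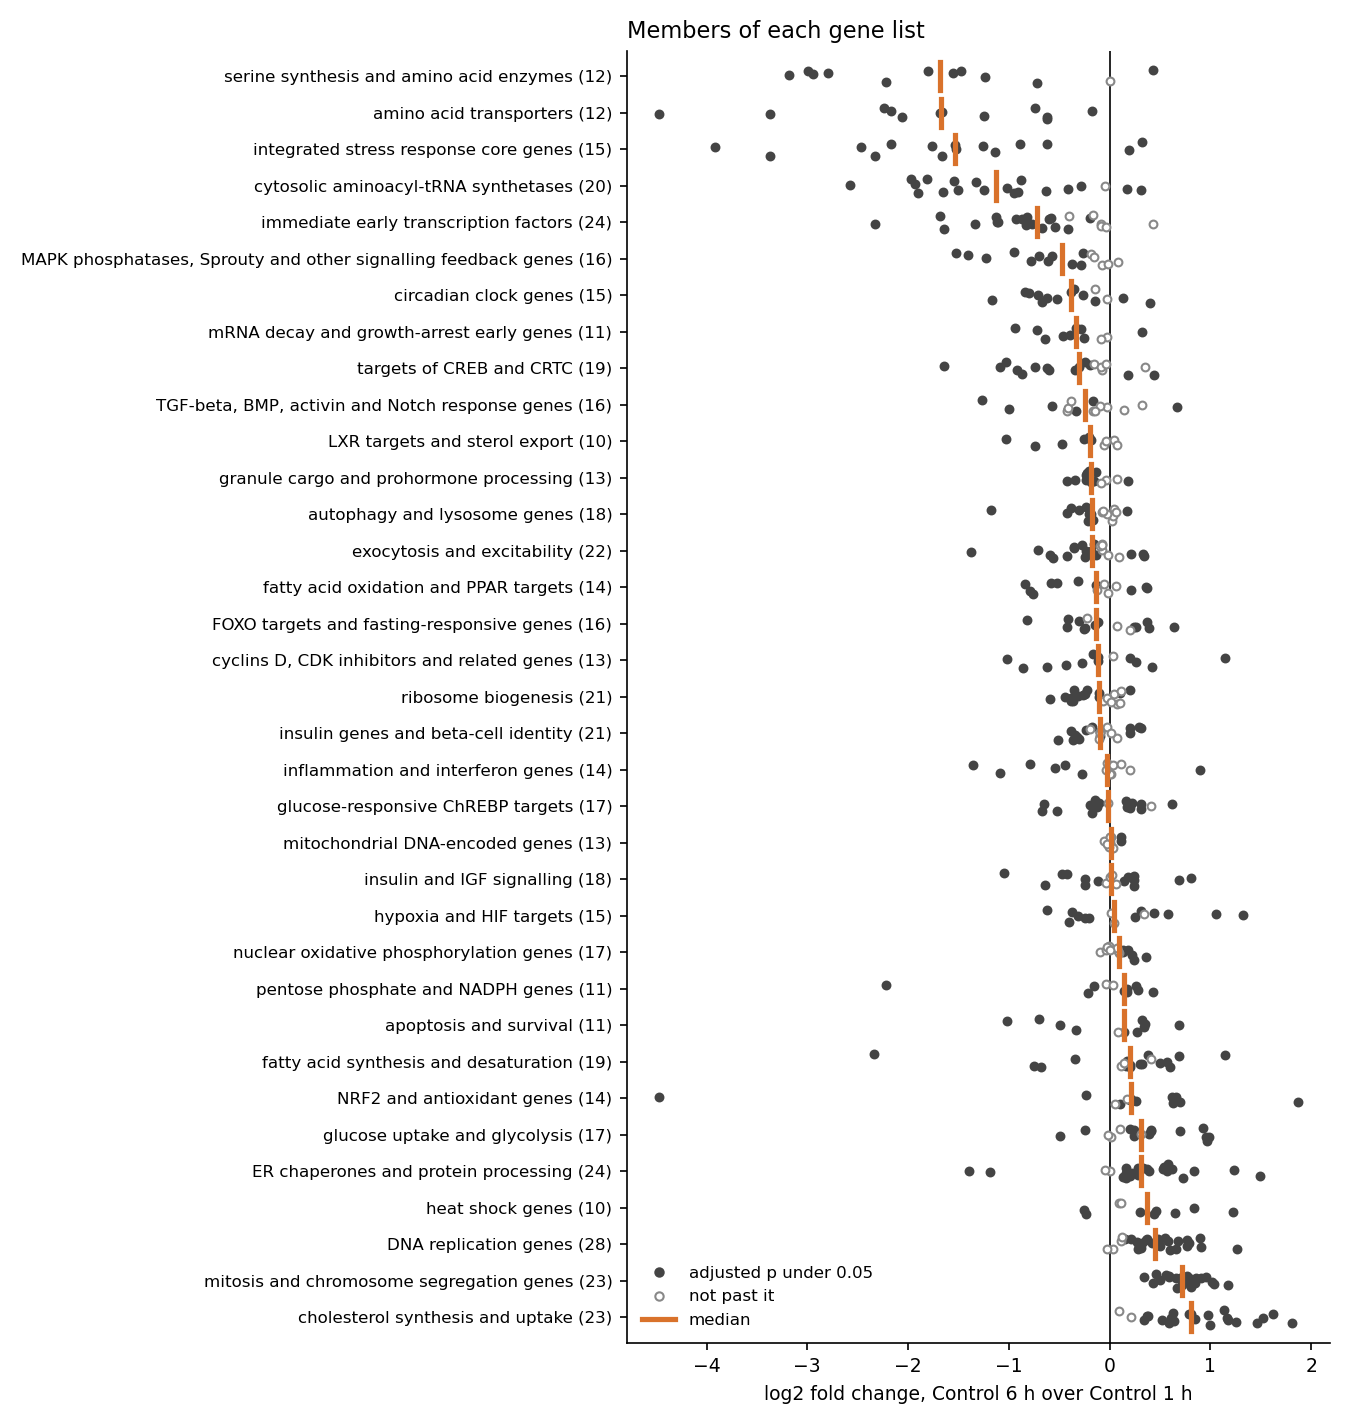
Log2 change at 6 h minus 1 h of each measured member of the gene lists of at least 10 measured genes (1 point per gene, filled where past the threshold, with a bar at the list's median and the number of genes in brackets). Amino acid enzymes and transporters and the integrated stress response lie lowest (medians -1.68, -1.67 and -1.54), and cholesterol and mitosis genes highest (0.81 and 0.72).

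Insulin and the genes of beta-cell identity changed little. Of 21 genes 4 rose and 10 fell, and none did so by 2-fold (median log2 change -0.10). Ins1, 1 of the 2 insulin genes of the rat, had 9067, 8956, 8918 and 8755 CPM at 6 h, against 9352, 9543, 9839 and 9406 CPM at 1 h. All 6 h libraries were below all 1 h libraries, with a log2 change of -0.10 ± 0.03 (SE, adjusted p = 0.00953). That call was lost without Control 6 h replicate 4 (adjusted p = 0.0509). Ins2 had 1330.2, 1337, 1385 and 1293 CPM at 6 h, against 1346, 1338, 1661 and 1351 CPM at 1 h. Replicate 3 at 1 h stood above the others, the groups overlapped, and the log2 change of -0.09 ± 0.06 (SE, adjusted p = 0.247) did not pass the threshold. Pdx1, the master factor of the pancreas, had 143, 132, 134 and 122 CPM at 6 h, against 122, 121, 114 and 103 CPM at 1 h, a log2 change of 0.21 ± 0.05 (SE, adjusted p = 0.00157). Mafa, an activator of the insulin genes, had 51, 58.3, 48.4 and 56.2 CPM at 6 h, against 60.9, 60.4, 61.9 and 58 CPM at 1 h. Its groups overlapped, and the log2 change of -0.17 ± 0.06 (SE, adjusted p = 0.00983) lost its call without Control 6 h replicate 3 (adjusted p = 0.0699).

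The incretin receptors were both lower. Glp1r, the receptor of GLP-1, had 106, 106, 111 and 113 CPM at 6 h, against 148, 156, 157 and 159.7 CPM at 1 h, a log2 change of -0.51 ± 0.04 (SE, adjusted p = 4.09e-11). Gipr, the receptor of GIP, averaged 209 ± 2.96 CPM at 6 h and 261 ± 7.51 CPM at 1 h, a log2 change of -0.32 ± 0.03 (SE, adjusted p = 2.03e-08). Among the factors, Nkx2-2 changed by -0.37 and Neurod1 by 0.29. Pcsk1 and G6pc2 had no symbol in the tables and were not analysed here.

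Of 13 genes of granule cargo and prohormone processing 9 fell and 1 rose, or 2 rose with the replicate block (median -0.19), and their summed level was 27303 to 29917 CPM at 6 h, against 30187 to 33012 CPM at 1 h. Scg2, a granin of the secretory granule, averaged 726 ± 15 CPM at 6 h and 919 ± 7.37 CPM at 1 h, a log2 change of -0.34 ± 0.03 (SE, adjusted p = 1.03e-09). Scg3, another granin, averaged 484 ± 31.6 CPM at 6 h and 651 ± 36.9 CPM at 1 h, a log2 change of -0.43 ± 0.04 (SE, adjusted p = 3.59e-08). Slc30a8, the zinc transporter of the granule, changed by -0.24 and Pam, which amidates peptides, by -0.21. Of 22 genes of exocytosis and excitability 13 fell and 3 rose (median -0.17). Rab3a, a GTPase of granule docking, had 119.5, 117, 113 and 108 CPM at 6 h, against 188, 181, 194 and 183 CPM at 1 h, a log2 change of -0.71 ± 0.04 (SE, adjusted p = 8.46e-14). Cacna1d, an L-type calcium channel, changed by -0.43, and Sytl4 (granuphilin) by 0.35. Of 6 measured peptide genes 2 fell and 2 rose, with Tac1 (substance P) at -1.54, Cartpt at -0.30, Cck (cholecystokinin) at 0.44 and Adm (adrenomedullin) at 1.32. The call of Cartpt, whose means were 6.21 ± 0.107 CPM at 6 h and 7.63 ± 0.752 CPM at 1 h, was lost when any of 6 libraries was left out (adjusted p = 0.0511 to 0.0885), which leaves 1 of the 6 lower.

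Genes of insulin and IGF signalling were split, and those of autophagy and lysosomes fell more often than they rose. Of 18 genes of insulin and IGF signalling 7 rose and 7 fell (median 0.02). Igf1r, the IGF-1 receptor, had 43.7, 48.5, 43.8 and 40.2 CPM at 6 h, against 89.4, 88.7, 98.4 and 88.9 CPM at 1 h, a log2 change of -1.05 ± 0.05 (SE, adjusted p = 1.37e-14). Igfbp3 and Igfbp5, IGF-binding proteins, changed by 0.69 and 0.81, and Pik3r1, the regulatory subunit of PI3-kinase, by -0.47. Irs2, the insulin receptor substrate that sustains beta-cell mass, had 396, 393, 445 and 439.5 CPM at 6 h, against 492, 472, 513 and 509.7 CPM at 1 h, a log2 change of -0.25 ± 0.04 (SE, adjusted p = 1.83e-05). Of 16 FOXO targets 8 fell and 5 rose (median -0.13), with Foxo1 and Insr both at -0.42 and Ccng2 at 0.37. The number that rose was 3 without Control 1 h replicate 4, and the number that fell was 5 with DESeq2 with the replicate block. Of 18 genes of autophagy and lysosomes 10 fell and 1 rose (median -0.18). Wipi1, which binds the forming autophagosome, averaged 55.5 ± 5.53 CPM at 6 h and 125 ± 11.8 CPM at 1 h, a log2 change of -1.17 ± 0.07 (SE, adjusted p = 2.39e-09), while the receptor Sqstm1 (p62), the autophagosome protein Gabarapl1 and the lysosomal channel Mcoln1 changed by -0.39, -0.30 and -0.42.

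The median changes of ribosome and mitochondrial genes were small, while some genes of the cytoskeleton changed by more. Of 21 genes of ribosome biogenesis 12 fell and 2 rose, or 4 rose with the replicate block (median -0.11), with the nucleolar proteins Gnl3, Wdr43, Rrs1 and Ncl at -0.44, -0.38, -0.59 and -0.26. Of 17 nuclear genes of oxidative phosphorylation 8 rose and none fell (median 0.09), with Ndufa4 (cytochrome c oxidase) at 0.36, the succinate dehydrogenase subunits Sdha and Sdhb at 0.24 and 0.22 and the complex III subunit Uqcrc2 at 0.18. With the replicate block, or without Control 6 h replicate 1, 1 of the 17 fell. Of 13 genes encoded in mitochondrial DNA 2 rose and none fell (median 0.01), the complex I subunits ND5 at 0.11 and ND6 at 0.11 (adjusted p = 0.142 for ND6 with the replicate number as a block). With the block 1 of the 13 rose and 1 fell, and without Control 1 h replicate 3 the number that rose was 1. Actin genes, which the factor SRF drives, went both ways. Of 8 of them 4 rose and 2 fell, with Actg1 (gamma-actin) at 0.68 and Vcl (vinculin) at 0.50, and with Zyx (zyxin) at -1.16 and Tagln2 (transgelin 2) at -0.22.

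Signalling targets that passed the test were mostly lower. Of 14 genes of inflammation 6 fell and 1 rose (median -0.03), with the transcription factors Stat3, Nfkb2 and Relb at -0.79, -1.09 and -0.55 and the adhesion molecule Icam1 at -1.35. Of 16 genes of TGF-beta, BMP, activin and Notch responses 6 fell and 1 rose (median -0.25), with the Notch target Hes1 at -0.57, the decoy receptor Bambi at -0.41 and the repressors Tgif1 and Skil at -1.0 and -0.33. The number that rose was 3 with the replicate block or without Control 1 h replicate 1, and 2 without Control 1 h replicate 3. Markers of other cell types were few. Of the 3 measured markers of acinar, duct, stromal, endothelial and immune cells 1 fell, the endothelial receptor Kdr, at 1.40 to 1.81 CPM at 6 h and 2.76 to 4.17 CPM at 1 h, a log2 change of -1.01. The number that fell was 2 with the replicate block, with DESeq2, without Control 1 h replicate 3 or 4, or without Control 6 h replicate 1 or 2. Of the 3 measured markers of other islet cells none passed the threshold, and 1 was higher without Control 1 h replicate 4.

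The largest changes over all genes with a mean of at least 100 reads included several genes outside the lists. Inhbe, which encodes an activin subunit, had 4.0, 1.0, 1.0 and 3.0 reads at 6 h, against 221, 177, 268 and 228 reads at 1 h. The 6 h libraries were at or near the floor of 3 reads, so no fold is given. Akna, an AT-hook protein, had 3.35, 2.37, 2.79 and 4.08 CPM at 6 h, against 42.1, 40.4, 48.3 and 48.1 CPM at 1 h, a log2 change of -3.82 ± 0.11 (SE, adjusted p = 1.07e-19). Stk32a, a serine/threonine kinase, had 6.78, 6.09, 8.22 and 7.66 CPM at 6 h, against 85, 81.6, 101 and 97.6 CPM at 1 h, a log2 change of -3.67 ± 0.09 (SE, adjusted p = 6.90e-19). The groups of both genes were far apart. Abcb1a, the drug exporter P-glycoprotein, averaged 2.53 ± 0.744 CPM at 6 h and 26.4 ± 4.72 CPM at 1 h, and Trim66, a tripartite-motif protein, averaged 19.5 ± 0.751 CPM at 6 h and 160.2 ± 13.4 CPM at 1 h. Their log2 changes were -3.38 ± 0.18 (SE, adjusted p = 1.77e-10) and -3.04 ± 0.06 (SE, adjusted p = 9.11e-23).

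In the other direction, Adamts8, a secreted metalloprotease, had 37.6, 40.0, 25.9 and 27.8 CPM at 6 h, against 7.43, 6.15, 3.48 and 3.2 CPM at 1 h. All 6 h libraries were above all 1 h libraries, with a log2 change of 2.69 ± 0.28 (SE, adjusted p = 0.000152). Tgfb2, a TGF-beta ligand, had 20.4, 14.3, 15.4 and 10.7 CPM at 6 h, against 4.84, 5.45, 3.48 and 2.66 CPM at 1 h, a log2 change of 1.89 ± 0.26 (SE, adjusted p = 0.000201). Galnt9, which starts O-glycans, averaged 149.6 ± 8.97 CPM at 6 h and 43.4 ± 2.53 CPM at 1 h, a log2 change of 1.79 ± 0.05 (SE, adjusted p = 6.81e-20). Derl3, a part of ER-associated degradation, averaged 18.4 ± 1.8 CPM at 6 h and 5.74 ± 0.279 CPM at 1 h, a log2 change of 1.68 ± 0.10 (SE, adjusted p = 2.24e-13). Mmp17 (a membrane-type metalloprotease), Olfml1 (an olfactomedin-like protein), Dock5 (a Rac activator) and Chdh (choline dehydrogenase) changed by 1.69, 1.68, 1.67 and 1.55.

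The change over time was then set against that in cells given GLP-1 or BMS-21, with an interaction test in 1 fit of all 24 libraries (13114 genes). The change in Control cells minus that in GLP-1 cells passed the threshold for 2270 genes (17.3%), with Control above for 1181 (9.01%) and below for 1089 (8.3%). Against BMS-21 it did so for 2844 genes (21.7%), with Control above for 1433 (10.9%) and below for 1411 (10.8%). Both differences use the same Control libraries, so they are not independent of each other. Neither tells whether the treatments differed at 1 h, at 6 h or at both, and levels with the agents are not given here. The median change over all genes was -0.01 in each of the 3 treatments.

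The median changes of the stress response and mitosis lists over time lay close together in the 3 treatments. The median log2 change of the stress response was -1.54 in Control, -1.56 with GLP-1 and -1.58 with BMS-21, and in Control minus GLP-1 3 of its 15 members were above and 2 below. With the replicate number as a block, these were 4 above and 7 below. In Control minus BMS-21, 2 members were above and 3 below, or 2 above and 6 below with the block. For mitosis the medians were 0.72 in Control, 0.69 with GLP-1 and 0.65 with BMS-21, and no member passed the test of the difference against GLP-1 (17.3% of all genes did), or 3 above and 1 below with the block. Against BMS-21, 2 were above and none below in Control, or 6 above and none below with the block. The amino acid transporters differed more, with medians of -1.67 in Control, -1.39 with GLP-1 and -1.43 with BMS-21, and with 6 of 12 members below and 1 above in Control minus either agent. Slc7a11 changed by -4.47 in Control, against -2.94 with GLP-1 and -2.85 with BMS-21, and Control minus GLP-1 was -1.53 ± 0.30 (SE, adjusted p = 0.00116). Asns differed by less, at -0.20 ± 0.06 for Control minus GLP-1 (adjusted p = 0.0139). The tRNA synthetases had medians of -1.13 in Control, -0.92 with GLP-1 and -0.91 with BMS-21. Control was below for 6 of 20 against GLP-1 and for 11 against BMS-21, and above for none. With the block it was below for 12 against either agent, and above for 1 against BMS-21. For the amino acid enzymes the medians were -1.68 in Control, -1.72 with GLP-1 and -1.77 with BMS-21.

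The immediate early genes fell less over time in Control cells than with an agent. Their median was -0.72 in Control, -1.88 with GLP-1 and -1.91 with BMS-21, and Control was above for 16 of 24 and below for 3 against GLP-1, and above for 16 and below for 5 against BMS-21. With the block the number below GLP-1 was 6. Nr4a1 changed by -1.64 in Control, against -4.60 with GLP-1 and -4.57 with BMS-21, a difference of 2.96 ± 0.09 for Control minus GLP-1 (adjusted p = 1.36e-24) and 2.93 ± 0.09 for Control minus BMS-21 (adjusted p = 1.69e-24). Fos changed by -0.93 in Control, against -3.28 with GLP-1 and -3.16 with BMS-21, with 2.36 ± 0.22 for Control minus GLP-1 (adjusted p = 1.79e-10). Egr1 changed by -0.67 in Control, against -1.96 with GLP-1 and -1.87 with BMS-21. Per1 changed by -0.62 in Control, against -2.17 with GLP-1 and -2.23 with BMS-21, and Control was above for 8 of the 15 clock genes against either agent and below for 2 against GLP-1 and 4 against BMS-21.

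Sterol genes rose more over time in Control cells. Their median was 0.81 in Control, 0.36 with GLP-1 and 0.35 with BMS-21, and Control was above for 15 of 23 and below for none against either agent. Insig1 changed by 1.0 in Control, against 0.11 with GLP-1 and 0.14 with BMS-21, with 0.89 ± 0.07 for Control minus GLP-1 (adjusted p = 3.26e-11). DNA replication genes had medians of 0.45 in Control, 0.32 with GLP-1 and 0.32 with BMS-21, with Control above for 9 of 28 and below for none against either agent.

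ER genes rose less over time in Control cells. Their median was 0.31 in Control, 0.53 with GLP-1 and 0.60 with BMS-21, and Control was below for 14 of 24 against GLP-1 and for 19 against BMS-21, and above for none. The block raised the count below GLP-1 to 22. Granule genes had medians of -0.19 in Control, 0.02 with GLP-1 and 0.05 with BMS-21, with Control below for 7 of 13 against GLP-1 and for 8 against BMS-21, and above for 1 against each, or 2 against each with the block. Glp1r changed by -0.51 in Control, against -0.20 with GLP-1 and -0.25 with BMS-21, with -0.31 ± 0.06 for Control minus GLP-1 (adjusted p = 8.83e-05). Slc2a2, which did not pass the threshold over time in Control cells, changed by 0.02 in Control, against -0.67 with GLP-1 and -0.71 with BMS-21, with 0.69 ± 0.05 for Control minus GLP-1 (adjusted p = 9.94e-14). Ccnd1 changed by 0.42 in Control, against 1.5 with GLP-1 and 1.62 with BMS-21, with -1.09 ± 0.17 for Control minus GLP-1 (adjusted p = 2.22e-05).

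**Figure D4:**
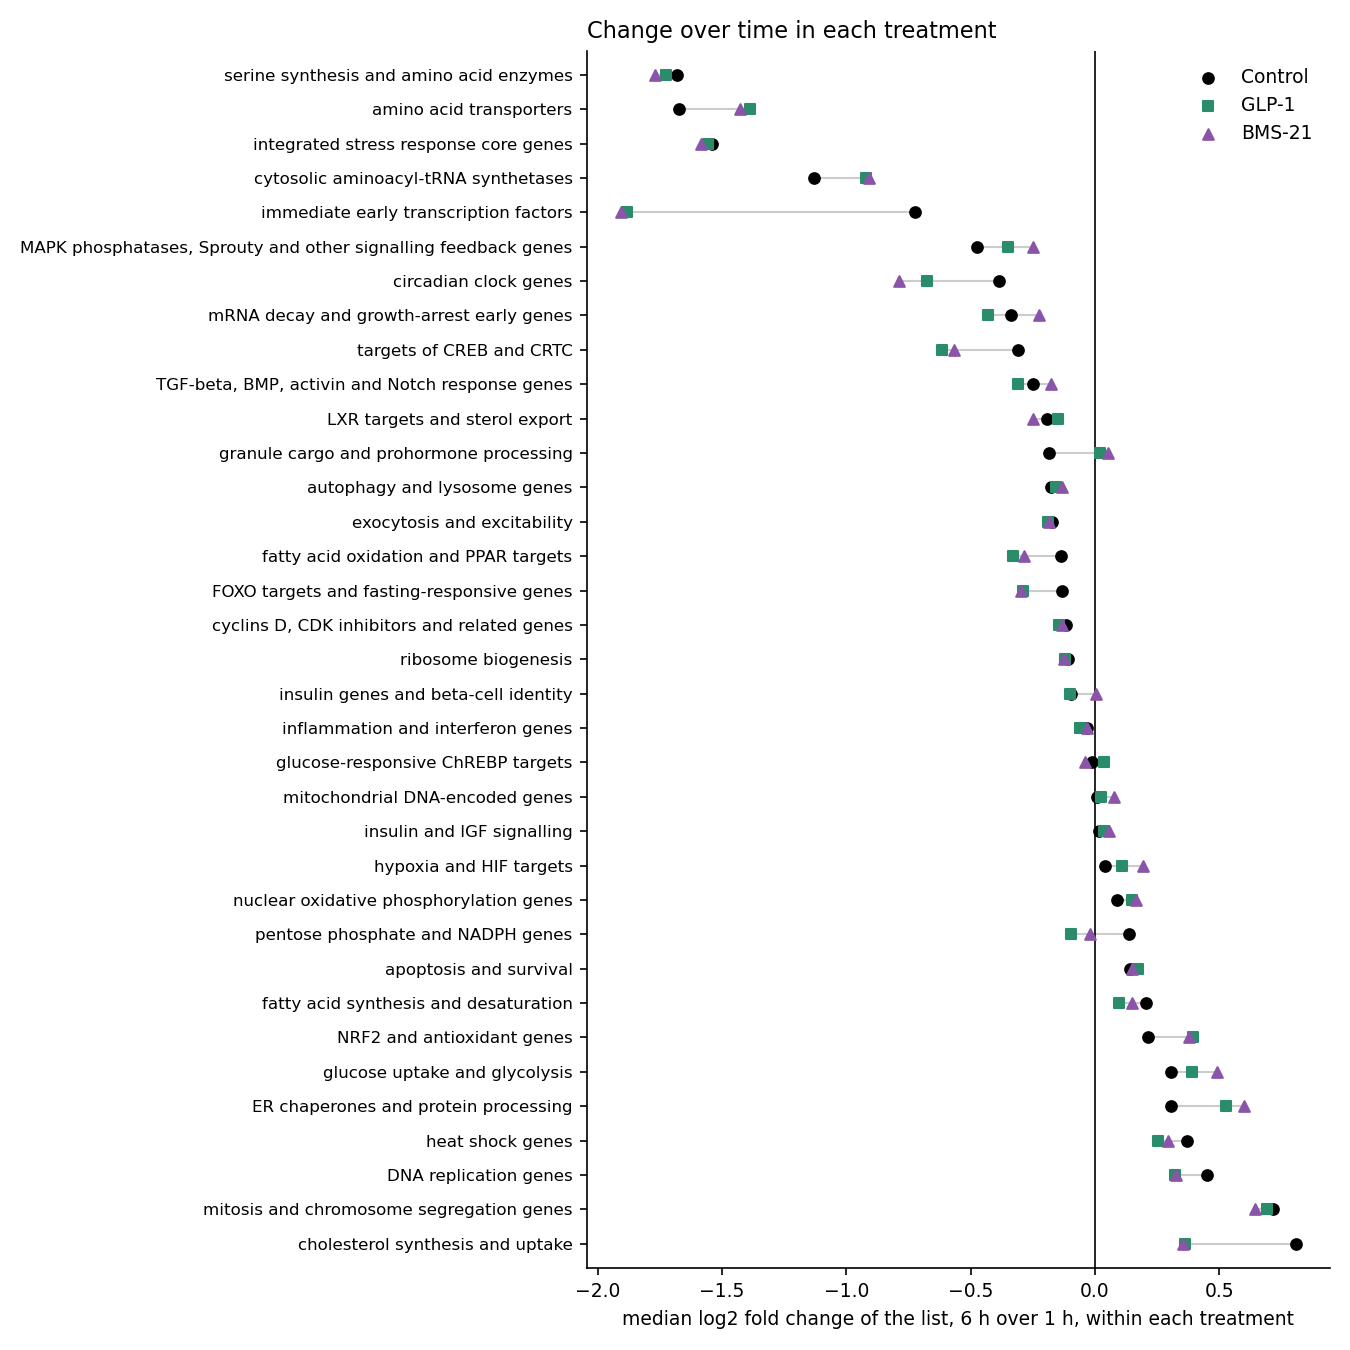
Median log2 change at 6 h minus 1 h of each gene list of at least 10 measured genes in Control, GLP-1 and BMS-21 cells, from 1 fit of 24 libraries. Immediate early genes are lowest with the agents (-1.88 and -1.91, against -0.72 in Control), sterol genes are highest in Control (0.81, against 0.36 and 0.35), and the stress response medians lie together (-1.54 to -1.58).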

How the data were processed

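RNA of INS-1 cells was sequenced from TruSeq v2 libraries, per the labels. The submitters' processing notes name the build Rnor_5.0 and TopHat2 2.0.12, Bowtie2 2.2.3.0, SAMtools 0.1.19.0, Subread, DESeq and DESeq2 1.6.3. The role of each tool, the counting settings and the annotation version are not given in the sources used here. The authors deposited 6 tables of 26404 genes, each with a signal per library, that is, read counts divided by 1 size factor per library within the table. The deposited log2 fold changes and p-values of the authors, which compare agents at 1 time, were not used.

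Because the tables were scaled separately, whole reads were recovered from the step of each column (100% of values were whole within 0.001), and the 2 tables of a library gave the same reads for 24 of 24 libraries. The count test was run on these reads. Genes were joined by Ensembl identifier, and 18465 carried a symbol in the files. No libraries of a group were duplicates (chi-squared over degrees of freedom 1.29 to 3.25 between replicates).

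Genes were tested with edgeR 4.0.16 (TMM scaling, filterByExpr, robust quasi-likelihood F test, no block, two-sided) in R 4.3.3, for Control at 6 h against 1 h on 8 libraries and for the interactions on 24. Standard errors were the log2 change divided by the square root of F. TMM factors were 1.008 to 1.011 at 6 h and 0.985 to 0.997 at 1 h. The test was checked on simulated data. After removal of the group means, same-numbered libraries at 6 h and 1 h correlated across genes by 0.144, 0.120, 0.126 and 0.148. Differently numbered libraries correlated by 0.071 and 0.122 within replicates 1 and 2, and by 0.118 and 0.037 within replicates 3 and 4. Between these sets every correlation was negative (-0.145 to -0.050). The replicates thus fall into 2 sets, and a pairing number by number is not settled. The first principal component (72.9% of the variance) separated the times. The second (7.14%) set replicates 1 and 2 apart from 3 and 4. The labels do not say what the replicate numbers share.

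Alternatives were median-of-ratios factors, scaling by totals, other filters on low counts, DESeq2 1.42.0, limma 3.58.1 with pseudocounts of 0.5, 1 and 5, the replicate block, 1 fit of 24 libraries, a fold of at least 1.5, each pair of replicates alone and leaving out each library. Named genes were the 10 largest increases and decreases with a mean of at least 100 reads, an official symbol and no overlap, up to 4 members, by smallest adjusted p, of each of 39 lists (718 genes, 651 with a symbol, 570 tested), and a set of genes named whatever their values, 176 in all, some of which are not reported here. The promoter rule chose the list with the highest share of members called in 1 direction. The amino acid transporters and the mitosis genes tied, and 3 genes of each are shown. The members and lists were chosen with earlier results of these data known.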

Additional observations from a re-analysis of the deposited data

Results flagged for a closer look

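In 12 of 352 groups of 4 libraries (176 genes at 2 times), the highest or lowest library stood apart from its neighbour by more than Dixon's 95% critical share of the group's range, where chance gives about 1 group in 20. At 6 h these were Dusp4 in replicate 1 (12.1 CPM), Vcl in replicate 1 (108 CPM), Per2 in replicate 2 (14.6 CPM) and Kdr in replicate 1 (1.40 CPM). At 1 h they were Zyx in replicate 2 (30.7 CPM), Slc7a5 in replicate 2 (636 CPM), Ndrg1 in replicate 1 (472 CPM), Igf1r in replicate 3 (98.4 CPM), Pik3r1 in replicate 2 (57.0 CPM), Sqstm1 in replicate 2 (918 CPM), Nkx2-2 in replicate 3 (59.7 CPM) and Ins2 in replicate 3 (1661 CPM). Over both times 4 lay in replicate 1, 5 in replicate 2, 3 in replicate 3 and none in replicate 4.

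For 16 of the genes named whatever their values, the change over time in Control cells differed from that in agent-treated cells by the interaction test. Where Control was above, Control minus GLP-1 and Control minus BMS-21 came to 2.96 and 2.93 on the log2 scale for Nr4a1, 2.36 and 2.23 for Fos, 1.55 and 1.61 for Per1, and 1.29 and 1.20 for Egr1. They came to 0.89 and 0.86 for Insig1, 0.69 and 0.72 for Slc2a2, 0.76 and 0.58 for Mafa, 0.37 and 0.32 for Irs2, 0.38 and 0.51 for Ccnd2, and 0.39 and 0.37 for Mlxipl. Where Control was below, they came to -1.53 and -1.63 for Slc7a11, -1.09 and -1.20 for Ccnd1, -0.56 and -0.63 for Txnip, -0.31 and -0.26 for Glp1r, -0.21 and -0.20 for Ins1, and -0.20 and -0.22 for Asns.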

How the results depend on the processing

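Over 21 alternatives, 170 of the 176 named genes kept their direction and their side of the threshold in every fit that held them. The other 6 (Cartpt, ND6, Ins1, Txnip, Mafa and Ccnd1) lost their call 27 times in all, each a gene under an alternative, and none reversed. The cause was not tested. Most named genes were picked for a small adjusted p or a large change in these same data. Keeping a call was therefore likely from the start, and the count does not speak for genes at large. Of 78 counts of list members (39 lists, higher and lower), 23 moved by over 1.5 times under some alternative, 10 of them when 1 library was left out. Those 23 counts were between 0 and 8 genes.

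A fold of at least 1.5 beside the threshold left 1678 genes for Control at 6 h against 1 h (639 higher, 1039 lower), 601 for Control minus GLP-1 (359 above, 242 below) and 767 for Control minus BMS-21 (451 above, 316 below), by its construction. Leaving out 1 library gave 6485 to 6588 genes at 6 h against 1 h. Leaving out a replicate of every group gave 1524 to 1794 genes for Control minus GLP-1, 712 to 837 of them below (712 without replicate 1), and 1899 to 2202 for Control minus BMS-21, 943 to 1135 of them above (943 without replicate 4), fits that hold fewer samples. Scaling by library totals moved the split at 6 h against 1 h to 3800 higher and 3154 lower, and DESeq2 called 6087 genes.

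With the replicate block the counts were 7740 genes at 6 h against 1 h (3860 higher, 3880 lower), 3329 for Control minus GLP-1 and 3851 for Control minus BMS-21. Among the named genes the block ended the call of ND6 and changed no other call at 6 h against 1 h. DESeq2 with the block called 5364. Depth limits genes near 3 reads per library, such as Inhbe at 6 h.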

Other observations

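Gene families taken by their symbols, chosen after the values were seen and described without a test, showed further groups. Not all families looked at are given here. Of 43 measured proteasome genes (Psm) 30 were higher and 5 were lower at 6 h in Control cells (median log2 change 0.21), against 26.7% higher and 27.2% lower over all genes. Psmd1, a subunit of the 19S particle, averaged 184 CPM at 6 h and 113 CPM at 1 h, a log2 change of 0.70. Psmd3 and Psma4 changed by 0.68 and 0.64. The 5 that were lower are Psmb8, of the immunoproteasome, and 4 genes that are no subunits of the core: Psmg1, Psmg2, Psmg4 (assembly chaperones) and Psmf1 (an inhibitor) changed by -0.25, -0.27, -0.20 and -0.24. Of 14 tubulins and their partners (Tub) 9 were higher and 1 was lower (median 0.22), with Tubb4b at 0.69 and Tubb5 at 0.48. Of 16 centromere genes (Cenp) 10 were higher and 1 was lower (median 0.31), and some of them stand in the mitosis list too.

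Potassium channel genes (Kcn) went the other way, with 4 of 57 higher and 22 lower at 6 h in Control cells (median -0.20). Kcnj3, an inward rectifier opened by G proteins, averaged 3.33 CPM at 6 h and 14.9 CPM at 1 h, a log2 change of -2.16 (adjusted p = 1.52e-13). Kcnk12 and Kcnh1 changed by -1.39 and -1.39, and the auxiliary subunit Kcnab3 was among the 4 that were higher, at 1.36. Of 7 histone genes (Hist) 0 were higher and 4 were lower (median -0.72), unlike the mitosis and replication lists. Of 31 kinesins (Kif) 14 were higher and 8 were lower (median 0.18). Of 47 ribosomal proteins of the cytosol (Rpl, Rps) 8 were higher and 17 were lower (median -0.05).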
